A study of Homo sapiens with 10 samples.

Results

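Extracellular vesicles (EVs) released by PC3, a human prostate cancer cell line that grew from a bone metastasis, were compared between 2 centrifugation pellets: 3 total RNA libraries of the pellet labelled 10K against 3 of the pellet labelled 2.8K. No unit of speed is labelled, so the pellets go by the names EV 10K and EV 2.8K. These 6 of the 10 libraries of the study were taken by their sample titles, which name the pellet and a set number from 1 to 3. The other 4, namely 3 libraries of the pellet labelled 100K and 1 library of whole PC3 cells, serve only as context. All cells were untreated PC3 cells grown in serum-supplemented medium, so every group shares line and medium, and serum can bring vesicles of its own. Whether the sets were separate cultures is not labelled, so p-values below reflect only the spread among these libraries, which could be technical.

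Cells shed vesicles of very different sizes and origins, and centrifugation at rising speed collects them in turn. Cell fragments, dying-cell bodies and large vesicles that bud from the plasma membrane pellet first, smaller budding vesicles later, and exosomes, which form inside endosomes, last. The RNA in a pellet therefore samples different places of the parent cell, such as mitochondria, the nucleus, the endoplasmic reticulum or thin protrusions. In such bulk samples, more vesicles of 1 kind and more RNA per vesicle cannot be told apart.

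Some small noncoding RNAs passed the test between the pellets, in both directions. Of 34 spliceosomal small nuclear RNAs tested, 3 passed the test higher in EV 10K, and of 5 Y and vault RNAs with RNY or VTRNA names, 2 did. Y RNA copies without such a name were counted apart, and none of them passed. Of 55 small nucleolar RNAs (snoRNAs), 2 passed lower in EV 10K, and of 6 Cajal body RNAs (scaRNAs), 2. Over all genes tested, 2.58% passed higher and 1.42% lower, so the snoRNA count is near that background, and most members of each of these classes did not pass. The sequences of 6 of these 9 are printed to show which RNAs the calls rest on. They are the gene sequences of GENCODE release 29 on GRCh38 in DNA letters. Capitals mark the ACA box in SNORA23 and SCARNA21, the stretch ACTTACCTG that pairs with 5′ splice sites in RNVU1-27, and the T run at the 3′ end, where RNA polymerase III stops, in the other 3.
SNORA23: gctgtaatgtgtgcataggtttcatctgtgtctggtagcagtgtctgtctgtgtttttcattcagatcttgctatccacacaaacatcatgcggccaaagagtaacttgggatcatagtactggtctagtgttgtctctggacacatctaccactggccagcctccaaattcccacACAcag
SCARNA21: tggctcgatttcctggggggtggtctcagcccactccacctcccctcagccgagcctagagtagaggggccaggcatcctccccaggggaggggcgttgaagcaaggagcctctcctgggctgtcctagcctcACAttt
RNVU1-27: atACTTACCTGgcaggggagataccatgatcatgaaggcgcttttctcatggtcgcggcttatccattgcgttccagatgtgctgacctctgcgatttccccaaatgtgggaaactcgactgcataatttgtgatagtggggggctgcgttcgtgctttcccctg
RNU6ATAC: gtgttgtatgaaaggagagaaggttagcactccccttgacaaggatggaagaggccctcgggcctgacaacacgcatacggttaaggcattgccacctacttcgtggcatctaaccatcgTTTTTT
VTRNA1-1: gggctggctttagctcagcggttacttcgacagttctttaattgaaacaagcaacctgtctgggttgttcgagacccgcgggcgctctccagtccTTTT
RNY1: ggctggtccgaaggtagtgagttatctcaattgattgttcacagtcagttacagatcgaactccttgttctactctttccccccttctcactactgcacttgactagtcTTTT

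The 6 libraries held between 7933251 and 14977955 counts, and 14043 genes had enough counts to be tested. Spearman correlations across genes were 0.852 to 0.913 within EV 2.8K, 0.904 to 0.921 within EV 10K and 0.822 to 0.889 between the pellets. The EV 2.8K library of set 1 stood apart from its group: 12.9% of its counts were mitochondrially encoded, against 4.92% and 4.81% in sets 2 and 3. At 7933251 counts, 14360 genes were detected in it, against 17890 and 17431. It also received the lowest library weight, 0.302, when weights were estimated (limma voom). The line's label was checked against marker genes: the keratins KRT8, KRT18 and KRT19 and vimentin were abundant in all 6 libraries, while the epithelial adhesion genes were low, with EPCAM at 1.24 to 10.8 CPM (counts scaled to a library total of 1000000) and CDH1 at 0 in 4 of the 6. The androgen receptor and its targets KLK3 and KLK2 had no counts, as had FOLH1.

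Markers of blood cells and plasma were low, while single markers listed for platelets and neurons were not. Of 14 leukocyte markers 10 had no count in any of the 6 libraries, and the list summed to at most 3.6 CPM; of 10 red blood cell markers 8 had none, and of 15 plasma and liver markers 8. Fibroblast markers summed to 14.3 to 43.7 CPM in EV 2.8K and 5.95 to 13.3 CPM in EV 10K, with 6 of 10 at 0 and COL1A1 leading. In the cell library they summed to 15.1 CPM. Neuronal markers summed to 513 to 1060 CPM in EV 2.8K and 615 to 1100 CPM in EV 10K, nearly all from NEFL, and the cell library had 269 CPM. Platelet markers summed to 80.3 to 100 CPM in EV 2.8K and 70.9 to 78 CPM in EV 10K, with 3 of 8 at 0 and nearly all from NRGN, and the cell library had 69.5 CPM. Endothelial markers summed to at most 12.5 CPM, with 3 of 8 at 0, and the cell library had 10.4 CPM. The part of these markers in the results below was not tested.

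Between the pellets, 561 genes (3.99% of those tested) passed the test at an adjusted p of 0.05 (edgeR quasi-likelihood F-test, Benjamini-Hochberg over all genes tested). Of these, 362 (2.58% of those tested) were higher in EV 10K and 199 (1.42%) lower, and 64.5% of the calls were thus in the higher direction. When libraries were scaled by their totals alone, that share was 50.6% (263 higher, 257 lower), with the median log2 fold change of all genes at -0.13 in place of -0.01. The calls depended on single libraries: 674 genes passed without EV 2.8K set 1, 355 without set 2 and 500 without set 3, and 239, 328 and 337 passed without EV 10K sets 1, 2 and 3. With every library left out in turn, 203 of the 561 passed in the same direction each time, 161 of the 362 higher and 42 of the 199 lower.

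**Figure D1:**
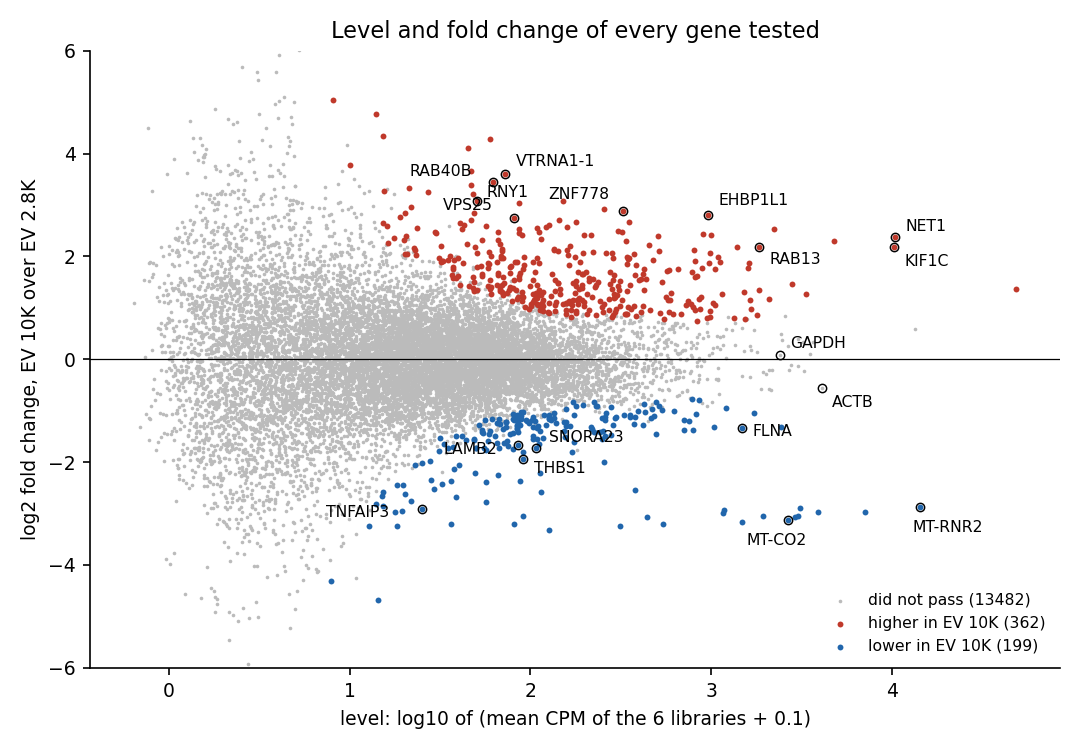
Each point is 1 of the 14043 genes tested, by level (log10 of the mean CPM over the 6 libraries plus 0.1) and log2 fold change of EV 10K over EV 2.8K. Red points passed higher and blue points lower in EV 10K, 80 genes beyond a log2 change of 6 lie outside the axis, and circles mark 18 named genes, among them NET1 at the upper right and the mitochondrial MT-RNR2 at the lower right.

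Among Y and vault RNAs, VTRNA1-1 and RNY1 passed higher in EV 10K. VTRNA1-1, a vault RNA found in the large vault particle and transcribed by RNA polymerase III (chr5:140711275-140711373, plus strand), stood at 18.02, 10.0 and 4.92 CPM in EV 2.8K and 302, 64.5 and 33.8 CPM in EV 10K sets 1 to 3. Every EV 10K library was above every EV 2.8K library, with set 1 far above the rest (log2 fold change 3.60, SE 0.67, adjusted p = 0.00479). The adjusted p was 0.0888 without that library and above 0.05 also without EV 10K set 2 or any 1 EV 2.8K library, at 0.0881 to 0.246. VTRNA1-1 did not pass by voom with library weights (0.471) or without the filter on low counts (0.104) either. RNY1, one of the Y RNAs that bind the Ro60 protein (chr7:148987136-148987248, minus strand), stood at 12.6, 8.32 and 10.95 CPM and at 184, 52.8 and 32.1 CPM (log2 fold change 3.08, SE 0.55, adjusted p = 0.00314, but 0.0912 without EV 10K set 1). The library of EV 10K set 1 was again the highest. By voom with library weights RNY1 did not pass (adjusted p = 0.132). The vault RNA VTRNA1-2 (log2 fold change 1.89, adjusted p = 0.128) and the Y RNA RNY3 (1.63, adjusted p = 0.141) did not pass, and their groups overlapped.

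Among small nuclear RNAs, the U1 variant RNVU1-27 (chr1:148522601-148522765, plus strand) had a log2 fold change of 2.67 (SE 0.38, adjusted p = 0.000477). RNU6ATAC, the U6-type RNA of the minor spliceosome (chr9:134164439-134164564, minus strand), stood at 8.24, 2.10 and 9.23 CPM in EV 2.8K and 49.5, 29.1 and 24.2 CPM in EV 10K (log2 fold change 2.40, SE 0.63, adjusted p = 0.0417). All EV 10K values lay above all EV 2.8K values, yet the call was lost without EV 2.8K set 2 or any 1 EV 10K library, with adjusted p from 0.0657 to 0.285, and under scaling by totals (0.0589). RNVU1-14, another U1 variant, was called with an adjusted p of 0.0449 and lost without every single library but EV 2.8K set 1. U1 variants resemble U1 and each other closely, and how reads shared between genes were counted is unknown here, which makes their counts uncertain.

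The snoRNAs and scaRNAs that passed were lower in EV 10K. SNORA23, an H/ACA snoRNA of the kind that guides pseudouridylation, lies within the importin gene IPO7 on the same strand (chr11:9428773-9428954) and overlaps none of its annotated exons. Its level was 237, 164 and 94.3 CPM in EV 2.8K and 60.8, 58.1 and 30.8 CPM in EV 10K, with no overlap (log2 fold change -1.73, SE 0.35, adjusted p = 0.00874, passing without each single library). IPO7 itself did not pass (0.34, adjusted p = 0.637). SNORD15B, the other snoRNA that passed, stood at 134, 191 and 114 CPM against 35.9, 37.0 and 12.65 CPM (-2.36, SE 0.38, adjusted p = 0.00133). Its host gene RPS3 passed in the opposite direction (0.81, adjusted p = 0.0244). That call of RPS3 was lost without any single library but EV 2.8K set 1. The Cajal body RNA SCARNA21 (chr17:7906122-7906260, within the chromatin remodeller gene CHD3) had a log2 fold change of -1.33 (SE 0.27, adjusted p = 0.00969, lost without EV 2.8K set 2 or EV 10K set 1 at 0.0703 and 0.0644), and CHD3 did not pass (0.46, adjusted p = 0.391). SCARNA6 passed at -1.62 (adjusted p = 0.011) and was lost without EV 2.8K set 2 (0.114) and EV 10K sets 1 and 3 (0.0628 and 0.0522).

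Of 2 ribosomal RNA genes tested outside mitochondria, 1 passed, lower in EV 10K. This was RNA5-8SN2, a gene copy of 5.8S ribosomal RNA. It stood at 147, 128 and 163 CPM in EV 2.8K and 25.8, 14.7 and 7.42 CPM in EV 10K, and it passed without each single library (log2 fold change -3.20, SE 0.40, adjusted p = 0.000156). MIR3648-1, whose sequence lies in the transcribed spacer of the ribosomal DNA repeat and which was named after its value was seen, passed at -2.76 (SE 0.57, adjusted p = 0.0103, but 0.0729 without EV 2.8K set 2). Both have near-identical copies in the genome, which makes their counts uncertain.

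As shares of all counts, snoRNAs and scaRNAs made up 0.106% ± 0.0236 in EV 2.8K and 0.0384% ± 0.0105 in EV 10K, and small nuclear RNAs 0.0314% ± 0.00456 and 0.072% ± 0.031 (SD, n = 3 each). Y and vault RNAs made up 0.00478% ± 0.000422 and 0.0288% ± 0.0254. Mitochondrially encoded RNA took 7.53% ± 4.63 and 0.954% ± 0.114, entries of the long noncoding RNA catalogue 4.54% ± 0.528 and 8.44% ± 1.23, and pseudogenes 2.16% ± 0.14 and 2.6% ± 0.228. The mitochondrial share was lower in EV 10K by a difference of -6.58 percentage points, or -3.91 without EV 2.8K set 1, and the Y and vault share differed by 0.0241 points, or 0.00972 without EV 10K set 1. In each of these 6 classes the groups did not overlap, and the exact two-sided permutation p was 0.1, the smallest that 3 libraries against 3 can give, so none could pass 0.05. With mitochondrially encoded genes left out of the counts, the groups overlapped for small nuclear RNAs (difference 0.0385 points, exact p = 0.2). Nuclear protein-coding genes took 85.5% ± 5.09 and 87.8% ± 1.23 of counts, which did not differ beyond the spread (exact p = 0.7).

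**Figure D2:**
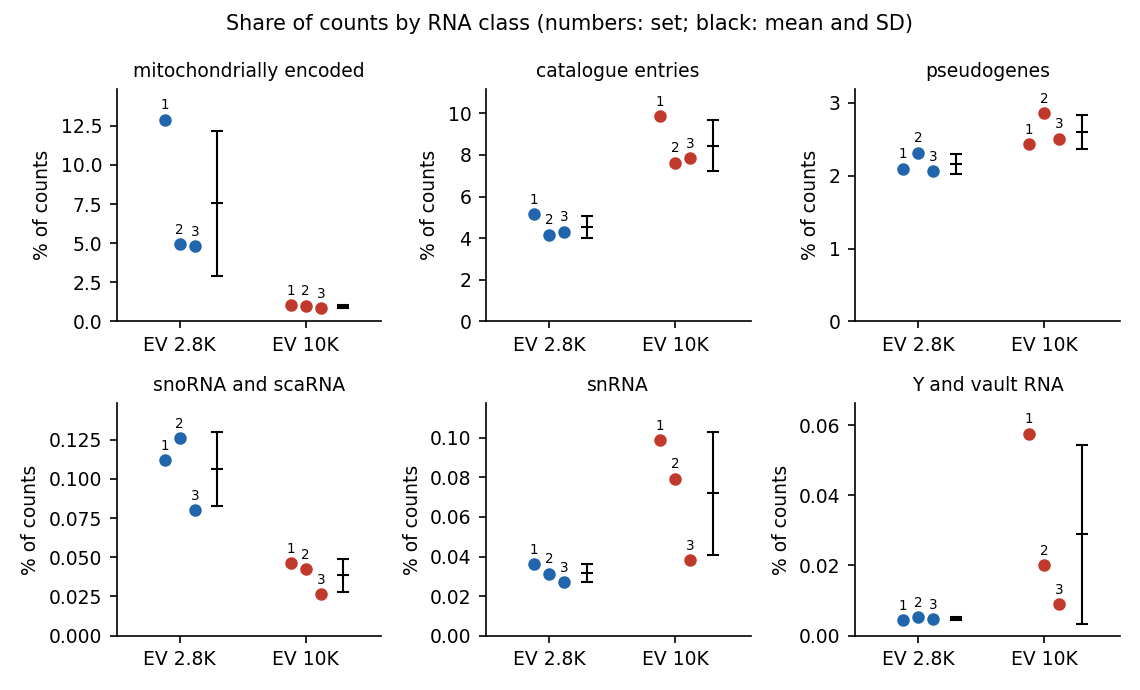
Share of all counts (%) in 6 RNA classes, by pellet, with each library as a numbered point (set 1 to 3) and the mean and SD in black. The mitochondrial and the snoRNA and scaRNA shares are lower in EV 10K and the other 4 are higher, with EV 2.8K set 1 far above its group for mitochondrial RNA and EV 10K set 1 above its group for Y and vault RNA.

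mRNAs that are known to gather in the protrusions of migrating cells had the largest share of members higher in EV 10K among the 57 gene lists examined. Such mRNAs travel along microtubules to the tips of protrusions, in part through the tumour suppressor protein APC, and are translated there. Of 12 listed members, all tested, 6 (50%) passed higher and none lower, against 2.58% and 1.42% of all genes, and the median log2 fold change was 1.19 against -0.01 for all genes tested. The same 6 were counted without each single library and under scaling by totals, where the median was 1.12. Without EV 10K set 3, 1 other member passed lower. The lists were chosen with earlier results of these data known, so their ranking is a description and no test.

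NET1, a guanine nucleotide exchange factor for RhoA, stood at 3288, 2818 and 3960 CPM in EV 2.8K and 19633, 15277 and 17209 CPM in EV 10K (log2 fold change 2.37, SE 0.22, adjusted p = 2.36e-05). Each EV 10K library was far above each EV 2.8K library, and the cell library had 228 CPM. TRAK2, an adaptor that links mitochondria to kinesin, stood at 1577, 1310 and 1910 CPM against 8821, 6539 and 8332 CPM (2.30, SE 0.23, adjusted p = 3.68e-05). KIF1C, a kinesin motor, stood at 4482, 2757 and 3906 CPM against 20303, 13283 and 16826 CPM (2.18, SE 0.25, adjusted p = 8.63e-05). RAB13, a small GTPase of membrane traffic to junctions and leading edges, stood at 623, 614 and 772 CPM against 3526, 2574 and 2983 CPM (2.18, SE 0.22, adjusted p = 3.79e-05). As context for RAB13, the EV 100K libraries had a mean of 1444 CPM and the cell library 12.7 CPM, both below every EV 10K library. ANP32B, a nuclear phosphoprotein, had a log2 fold change of 1.87 (adjusted p = 9.08e-05), and PKP4, a plakophilin-related junction protein, 1.45 (adjusted p = 0.000871).

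The other 6 members did not pass. DDR2, a collagen receptor with few counts, had a log2 fold change of 0.93 with an SE of 1.97, DYNLL2, a dynein light chain, 0.71 (adjusted p = 0.303), PALLD 0.62 (0.327) and DNAJA1 0.51 (0.22). CAV1, the caveolin of caveolae, had -0.42 (0.781) and CYB5R3, a reductase of the endoplasmic reticulum and mitochondria, -0.97 (0.126). CYB5R3 did pass in other fits, with all 10 libraries (0.0116) and by voom with library weights (0.0272). It also passed without the filter on low counts (0.0285) and with the set number as a block (0.0204). DYNLL2 passed by voom with library weights (0.0357). The mRNA of APC itself, which was chosen after its value was seen, was higher in EV 10K in the same way, at 149, 144 and 186 CPM against 1008, 594 and 626 CPM (2.22, SE 0.25, adjusted p = 8.55e-05).

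**Figure D3:**
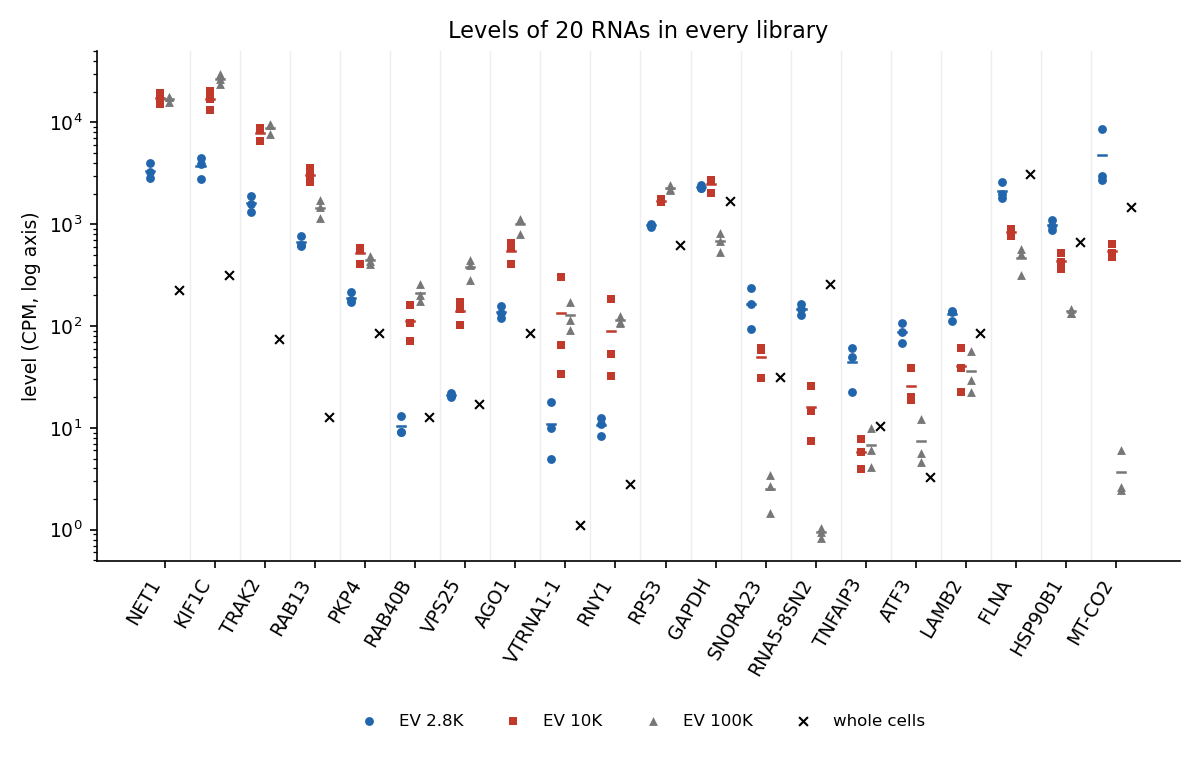
Level (CPM, log axis) of 20 RNAs, with 1 point per library and a short line at the mean of each pellet. EV 10K squares lie above EV 2.8K circles for NET1 to RPS3 and below them for SNORA23 to MT-CO2, while GAPDH overlaps, and the EV 100K triangles and the cell library's crosses are context with no test.

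Other genes of vesicle traffic and motor transport passed singly and not as whole groups. Of 36 RAB GTPases, which direct vesicles between compartments, 3 (8.33%) passed higher and none lower: RAB13, RAB4A (log2 fold change 2.13, SE 0.27, adjusted p = 0.0002) and RAB40B (3.44, SE 0.38, adjusted p = 7.62e-05). RAB4A, a RAB of endosome recycling, stood at 53.7, 44.7 and 52.0 CPM in EV 2.8K and 280, 218 and 159 CPM in EV 10K. RAB40B, which acts in sorting of matrix metalloproteinases at invadopodia, stood at 9.17, 9.04 and 13.02 CPM against 162, 106 and 71.6 CPM. All 3 passed without each single library, and the median of the list was 0.23 (0.09 under scaling by totals). Of 36 kinesin and dynein genes, 4 (11.1%) passed higher, namely KIF1C, DYNC1LI2 (1.70), KIF3B (1.22) and KIF13A (1.16), and none lower, with a median of 0.02. Without EV 10K set 1 there were 2, and under scaling by totals the median was -0.13.

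Of 30 genes of the ESCRT machinery, which buds vesicles into endosomes and cuts membrane necks, 2 (6.67%) passed higher. VPS25, a subunit of ESCRT-II, stood at 22.3, 20.5 and 20.01 CPM in EV 2.8K and 171, 148 and 102 CPM in EV 10K (log2 fold change 2.75, SE 0.30, adjusted p = 7.62e-05). Its 3 EV 2.8K libraries were close to the cell library at 17.2 CPM. VPS37B, of ESCRT-I, passed at 1.31 (adjusted p = 0.0451), a call that was lost without EV 2.8K set 2 or 3 or EV 10K set 1 or 2 (0.0918 to 0.213). Of 14 tetraspanins, 1 passed, TSPAN13 (2.07, SE 0.35, adjusted p = 0.00199). The mRNAs of proteins used as EV markers did not pass: CD9 had a log2 fold change of -0.51 (adjusted p = 0.567), CD63 0.28 (0.719), CD81 -0.78 (0.136) and TSG101 0.16 (0.977, with the sign turning under scaling by totals and without EV 2.8K set 1 or EV 10K set 2). Of 9 annexins, which bind membranes with calcium, 1 passed lower, ANXA1 (-1.07, adjusted p = 0.0361), and it was lost without every single library but EV 2.8K set 3.

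EHBP1L1, SH3PXD2A and RASSF3, in none of the lists, were named after their small p-values were seen. EHBP1L1, an adaptor protein of endosomal transport, stood at 275, 217 and 231 CPM in EV 2.8K and 1981, 1403 and 1656 CPM in EV 10K (log2 fold change 2.80, SE 0.22, adjusted p = 1.58e-05, the smallest of all genes). SH3PXD2A encodes TKS5, a scaffold of invadopodia, and stood at 107, 76.9 and 101 CPM against 686, 450 and 688 CPM (2.68, SE 0.25, adjusted p = 2.36e-05). RASSF3, of the Ras association domain family, stood at 791, 508 and 655 CPM against 4638, 3107 and 3642 CPM (2.54, SE 0.24, adjusted p = 2.36e-05). For these 3 genes every EV 10K value lay between the EV 2.8K values and the mean of EV 100K, which was 4333, 1515 and 7596 CPM.

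By size of change, the rule for named genes gave 12 in each direction. ZNF778, a zinc finger gene, had 99.7, 65.9 and 69.1 CPM against 664, 601 and 457 CPM (2.87, SE 0.25, adjusted p = 2.01e-05), and OTUD3, a deubiquitinase, had 23.3, 40.8 and 32.9 CPM against 390, 231 and 194 CPM (3.07, SE 0.32, adjusted p = 6.01e-05). Both passed without each single library, as did ZSCAN2 (3.25), a zinc finger gene with overlapping antisense genes, and IBA57 (2.84), of iron-sulfur cluster assembly. PITPNM3 (3.33), ADAMTS17 (3.77) and ADGRL1-AS1 (5.05), which lies antisense to ADGRL1, passed with fewer counts and were lost without 3, 5 and 5 of the 6 single libraries. VTRNA1-1, RNY1, RAB40B and RPL37 also belong to these 12. INPP5B, an inositol phosphatase, had 2 counts in all of EV 2.8K and 378 in EV 10K (adjusted p = 0.0053, but 0.152 without EV 10K set 2). In the other direction AMH, anti-Müllerian hormone, had 28.73, 1.38 and 7.24 CPM in EV 2.8K and no count in EV 10K, so that with a floor of 3 counts over the group it was at least 106-fold lower there (adjusted p = 0.016, but 0.181 without EV 2.8K set 1). The microRNA gene MIR4321 overlaps AMH on the same strand. H6PD, an enzyme of the endoplasmic reticulum, had 42.4, 13.1 and 13.6 CPM against 1.46, 2.15 and 3.62 CPM (-3.25, adjusted p = 0.031, lost without EV 2.8K set 1 or any 1 EV 10K library). RNA5-8SN2 and 9 mitochondrially encoded genes complete the 12, namely MT-TV, MT-TL1 (-4.31, lost without any single library but EV 2.8K set 2), MT-ND3 (-3.32), MT-ND4L (-3.21), MT-CYB (-3.17), MT-CO2, MT-ATP8 (-3.07), MT-ND1 (-3.07) and MT-ND2 (-3.05).

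mRNAs of RNA-binding proteins split within families. Of 42 hnRNP and SR splicing regulators, 5 (11.9%) passed higher and 3 (7.14%) lower, with a median of 0.01. HNRNPH3 stood at 477, 431 and 533 CPM in EV 2.8K and 1801, 1690 and 1384 CPM in EV 10K (log2 fold change 1.76, SE 0.21, adjusted p = 0.000114), and HNRNPA3 at 311, 275 and 317 CPM against 1228, 859 and 962 CPM (1.76, SE 0.21, adjusted p = 0.000144). RBM25, a regulator of 5′ splice site choice, passed at 1.78 and PNN, a nuclear speckle protein, at 1.34, and all 4 passed without each single library. HNRNPM passed at 0.80 (adjusted p = 0.0458) and was lost without any single library but EV 2.8K set 1. The 3 that passed lower were the nuclear speckle protein SRRM2 and the SR proteins SRSF2 and SRSF5, and 1 of the family passed lower without EV 10K set 1 or 2. Of 42 spliceosomal snRNP proteins, 2 passed higher, SNRPD1 (1.42) and TXNL4A (1.097), and 2 lower, PRPF8 (-1.18) and SNRNP200, with a median of -0.23.

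Of 15 genes of the microRNA pathway, 1 passed: AGO1, an Argonaute protein that carries microRNAs, at 121, 133 and 159 CPM in EV 2.8K and 648, 404 and 592 CPM in EV 10K (log2 fold change 2.00, SE 0.24, adjusted p = 0.000118), also without each single library. Of 45 translation factors, 2 (4.44%) passed higher and none lower, near the 2.58% and 1.42% of all genes. They were EIF5B (1.78, adjusted p = 0.000253) and EIF3A (1.17, adjusted p = 0.00381). Without EV 2.8K set 3, 2 translation factors passed lower, and under scaling by totals and by DESeq2 1 did. Of 40 genes of mRNA decay and P-bodies, 35 aminoacyl-tRNA synthetases and 47 genes of DNA replication, none passed by edgeR in either direction. At an unadjusted p under 0.05 these lists had 7, 5 and 5 members, and DESeq2 called 2, 0 and 0.

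Secreted and membrane proteins are made at the endoplasmic reticulum, and the lists of matrix genes and of receptors had calls in the lower direction only. Genes outside these lists could go the other way. The surface receptor gene LPAR1, named after its values were seen, passed higher without each single library (log2 fold change 1.73 to 2.15). ADAMTS17, a secreted protease named above, passed higher too. Of 54 genes of the extracellular matrix, 15 (27.8%) passed lower and none higher, against 1.42% of all genes, with a median log2 fold change of -0.85, and 51 of the 54 had a negative value. The count was 7, 9 and 7 without EV 10K sets 1, 2 and 3. The laminin chain LAMB2, a basement membrane component, stood at 142, 113 and 137 CPM in EV 2.8K and 22.5, 39.0 and 60.8 CPM in EV 10K, with no overlap (-1.67, SE 0.34, adjusted p = 0.00847, passing without each single library). LAMA5 (-1.48) and LAMA3 (-1.30, lost without EV 10K set 1 or 3 at 0.0698 and 0.0507) passed as well. CCN1, a matricellular protein that binds integrins, stood at 611, 367 and 248 CPM against 94.3, 135 and 78.5 CPM (-1.995, SE 0.31, adjusted p = 0.00101). The collagen genes COL4A1, COL6A2, COL12A1 and COL18A1 and the protease inhibitor gene SERPINE2 were among the others that passed. COL1A1, the fibroblast marker, was low beside these values, at 3.17 to 27.6 CPM in EV 2.8K and 1.62 to 3.92 CPM in EV 10K. Its level in the cell library was 9.09 CPM.

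Fewer receptors passed. All 10 tested integrin chains, the receptors for this matrix, had negative values, with a median of -0.74, and 1 passed: ITGA3, a laminin receptor chain, at 554, 509 and 489 CPM in EV 2.8K and 178, 277 and 258 CPM in EV 10K (-1.12, SE 0.22, adjusted p = 0.00739, but 0.0668 without EV 10K set 1). Of 46 growth factor and surface receptors, 2 (4.35%) passed lower, LRP1 (-1.30) and the cytokine receptor IL6ST (-1.41), and 42 had a negative value, with a median of -0.70. Under scaling by totals 7 passed lower and the median was -0.81. The count was 4, 1 and 3 without EV 2.8K sets 1, 2 and 3, and 0, 2 and 1 without EV 10K sets 1, 2 and 3. LRP1 was lost without EV 10K set 1 or 2 (0.12 and 0.0742). IL6ST was lost without EV 2.8K set 2 or 3 or EV 10K set 1 or 3 (0.0822 to 0.159). Of 31 secreted growth factors and cytokines, 2 (6.45%) passed lower, the chemokines CXCL1 and CXCL2, and none higher. Without EV 2.8K sets 1, 2 and 3, 5, 1 and 2 passed lower, and without any 1 EV 10K library 1 did. Without EV 2.8K set 3, 1 passed higher. Of 16 genes of MHC class I presentation, 3 (18.8%) passed lower with a median of -0.998: TAPBP, which loads peptides on class I molecules, at 145, 90.0 and 108 CPM against 29.8, 36.7 and 40.4 CPM (-1.68, SE 0.30, adjusted p = 0.00337), HLA-C (-1.27, adjusted p = 0.0192) and the chaperone CALR (-1.05, adjusted p = 0.0148). The count was 5 without EV 2.8K set 1, 2 without set 2 or 3 or EV 10K set 2 or 3, and 1 without EV 10K set 1.

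Of 46 genes for chaperones, the translocon and glycosylation in the endoplasmic reticulum (ER), 8 (17.4%) passed lower, none higher and 38 did not pass, with a median of -0.53. HSPA5, the ER chaperone BiP, stood at 1123, 1066 and 955 CPM in EV 2.8K and 275, 622 and 481 CPM in EV 10K (-1.19, SE 0.26, adjusted p = 0.0148), and no libraries overlapped. The call of HSPA5 was lost without EV 10K set 1 or 3 (0.0738 and 0.0558), and the count of the list was 3, 5 and 3 without EV 10K sets 1, 2 and 3. Of 41 genes of COPI, COPII and Golgi transport, 2 passed higher, the large golgins GOLGB1 (1.27, adjusted p = 0.00445) and GOLGA2 (1.02, adjusted p = 0.0375), and none lower, with a median of -0.20. GOLGA2 was lost without any single library but EV 2.8K set 1 (0.061 to 0.202) and under scaling by totals (0.0802), and without EV 2.8K set 1 the list had 3 higher and 2 lower. Of 40 lysosomal genes 1 passed lower, PSAP, the precursor of the saposins (-1.25, adjusted p = 0.00952, but 0.0579 without EV 10K set 1), with a list median of -0.63.

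Actin-binding genes were lower where they passed, with 1 exception. Of 49 genes of the actin cytoskeleton and adhesion, 5 (10.2%) passed lower, and 1, the Arp2/3 subunit ARPC1A, passed higher, with a median of -0.23. FLNA, filamin A, which crosslinks actin, stood at 2572, 1821 and 1959 CPM in EV 2.8K and 888, 772 and 864 CPM in EV 10K (-1.33, SE 0.21, adjusted p = 0.00102). ACTN4, an actin-bundling actinin, stood at 1126, 485 and 562 CPM against 283, 227 and 283 CPM (-1.46, SE 0.28, adjusted p = 0.00649). Both of these and ACTN1 (-1.37) passed without each single library, whereas VCL (-0.83) and FSCN1 (-0.88) were lost without all but EV 2.8K set 1 and EV 2.8K set 3, respectively, and 3 of the 5 stayed called without EV 2.8K set 2 or any 1 EV 10K library. ACTB, cytoplasmic actin, did not pass (-0.56, adjusted p = 0.215), nor did KRT8 (-0.24, 0.7), KRT18 (-0.42, 0.391) or VIM (-0.64, 0.17). GAPDH, a glycolytic enzyme often used as a reference, had a log2 fold change of 0.09 (adjusted p = 0.92) whose sign turned under scaling by totals.

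Several short-lived mRNAs were lower in EV 10K. Immediate early genes are switched on within minutes of a stimulus, and their mRNAs are degraded fast. Of 31 tested, 8 (25.8%) passed lower and none higher, with a median of -0.85. FOS, of the AP-1 transcription factor, stood at 52.7, 22.5 and 17.3 CPM in EV 2.8K and 3.04, 6.96 and 7.04 CPM in EV 10K (-2.44, SE 0.64, adjusted p = 0.0411), and the cell library had 0.0568 CPM. ATF3, a stress-induced transcription factor, stood at 88.3, 107 and 67.9 CPM against 20.03, 38.7 and 18.8 CPM (-1.76, SE 0.37, adjusted p = 0.0106), and the cell library had 3.27 CPM. ZFP36L1 and ZFP36, which drive decay of AU-rich mRNAs, passed at -1.59 and -2.34, JUNB at -1.28, JUN at -0.89, MYC at -1.54 and GADD45B at -1.501. No libraries of the 2 pellets overlapped for any of these 8. The calls were weak: 4 passed without EV 2.8K set 1, 3 without set 2 and 6 without set 3, and 1, 2 and 1 without EV 10K sets 1, 2 and 3. FOS was lost without any single library but EV 2.8K set 3 (0.0658 to 0.211). It did not pass with all 9 EV libraries (0.0874), by voom with library weights (0.121) or with the set number as a block (0.0811). GADD45B was lost without each single library (0.072 to 0.196), and ZFP36L1 only without EV 10K set 2 (0.0633).

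The inhibitors of NF-kB signalling TNFAIP3 and NFKBIA, which are themselves its targets, passed lower together with CXCL1 and CXCL2 among 22 listed targets (18.2%, median -1.03). CXCL2 (-1.53, adjusted p = 0.0451) was lost without any single library but EV 2.8K set 1 (0.0992 to 0.189). It did not pass with all 10 libraries in the fit either (0.0573). TNFAIP3 stood at 49.3, 60.4 and 22.3 CPM in EV 2.8K and 3.94, 7.85 and 5.80 CPM in EV 10K (-2.91, SE 0.54, adjusted p = 0.00465), and it passed without each single library. The clock genes PER1 (-2.62, adjusted p = 0.0181) and NR1D1 (-2.85, adjusted p = 0.037) were lower too, as noticed after their values were seen. PER1 was lost without EV 2.8K set 3 or EV 10K set 2 or 3 (0.0562 to 0.0777) and NR1D1 without all but EV 2.8K set 3 (0.0871 to 0.228).

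**Figure D4:**
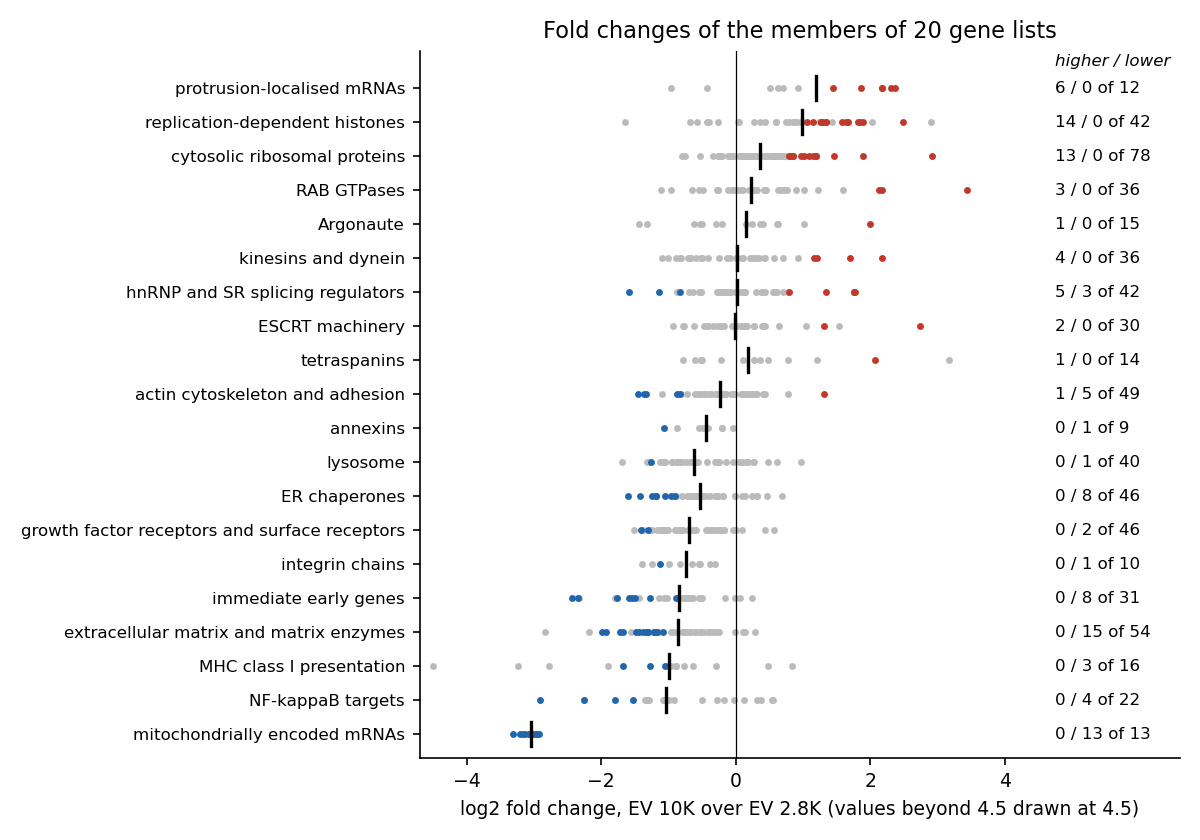
Log2 fold change of each tested member (points) of 20 gene lists, with the median as a black bar and the number that passed higher (red) and lower (blue) at the right. Protrusion-localised mRNAs have the highest median of these lists, 1.19, and mitochondrially encoded mRNAs the lowest, -3.05.

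Of 6 long noncoding RNAs with well-known places in the cell, 3 nuclear ones passed lower (KCNQ1OT1, NEAT1 and MALAT1) and a cytoplasmic one, NORAD, passed higher. NEAT1, the scaffold of paraspeckles, stood at 158, 828 and 953 CPM in EV 2.8K and 107, 128 and 101 CPM in EV 10K (-2.53, SE 0.45, adjusted p = 0.00305). The EV 2.8K library of set 1 was far below its group and only just above EV 10K. The call was lost without EV 2.8K set 2 (0.107) and without EV 10K set 1, 2 or 3 (0.198, 0.183 and 0.129). MALAT1 passed at -1.32 (adjusted p = 0.0397), but its groups overlapped, and it was lost without any single library but EV 2.8K set 1 and under scaling by totals (0.0706). LINC-PINT, named after its values were seen, stood at 66.9, 216 and 303 CPM against 40.1, 26.1 and 31.4 CPM and passed without each single library (-2.59, SE 0.42, adjusted p = 0.00157). NORAD, which binds PUMILIO proteins in the cytoplasm, stood at 46.4, 73.9 and 74.4 CPM against 140, 152 and 149 CPM (1.18, SE 0.27, adjusted p = 0.0193). Its call was lost without any 1 EV 10K library (0.0615 to 0.0802) and under scaling by totals (0.0744).

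Mitochondrially encoded genes were lower in EV 10K: 17 of the 23 tested passed lower, including all 13 mRNAs, whose median log2 fold change was -3.05. MT-CO2, a subunit of cytochrome c oxidase, stood at 8554, 2962 and 2747 CPM in EV 2.8K and 474, 633 and 524 CPM in EV 10K (-3.13, SE 0.37, adjusted p = 0.000114). The library of EV 2.8K set 1 was far above the others, and without it 12 of the 13 mRNAs passed. Without EV 10K set 1 or 2 there were 5. The tRNA MT-TV stood at 48.1, 15.9 and 18.1 CPM against 0.450, 1.27 and 1.43 CPM (-4.69, SE 0.82, adjusted p = 0.00277). Nuclear-encoded mitochondrial proteins, whose mRNAs are made in the nucleus and translated outside mitochondria, had no call in this direction. Of 74 respiratory chain subunits 4 (5.41%) passed higher and none lower, namely NDUFV3 (1.75), UQCRB, NDUFS6 (0.88) and ATP5F1A (0.86), with a median of 0.09 (-0.03 under scaling by totals). Without any 1 EV 10K library, and under scaling by totals, 2 passed, while NDUFV3 passed without each single library. UQCRB, of complex III, stood at 320, 358 and 374 CPM in EV 2.8K and 972, 888 and 701 CPM in EV 10K (1.28, SE 0.21, adjusted p = 0.00155). Of 34 import and carrier genes, SLC25A3 (1.54), TIMM10 (1.37) and TIMM21 (1.45) passed higher and none lower. Without EV 2.8K set 3 or any 1 EV 10K library 1 passed, since TIMM10 was lost without each of these 4 (0.0797 to 0.123) and TIMM21 without these and EV 2.8K set 2 (0.0548 to 0.151).

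Replication-dependent histone mRNAs, which end in a stem-loop in place of a poly(A) tail, and ribosomal protein mRNAs were higher where they passed: 14 of 42 histones (33.3%, median 0.98) and 13 of 78 ribosomal protein genes (16.7%, median 0.36), with none lower. H4C2, which encodes histone H4, stood at 132, 87.2 and 57.5 CPM in EV 2.8K and 581, 602 and 377 CPM in EV 10K (2.49, SE 0.30, adjusted p = 0.000127), and H2AC12 (1.82) and H2AC4 (1.63), of histone H2A, passed as well. RPL37, of the large ribosomal subunit, stood at 54.8, 66.7 and 58.7 CPM against 574, 435 and 351 CPM (2.92, SE 0.25, adjusted p = 2.01e-05), and RPL23 (1.89) and RPS6 (1.46) had the next smallest p of the list. No pellets overlapped for these 6 genes, and each passed without each single library. RPS3, of the small ribosomal subunit and named after its values were seen, stood at 948, 980 and 995 CPM against 1662, 1758 and 1688 CPM (0.81, SE 0.19, adjusted p = 0.0244), a call that was lost without any single library but EV 2.8K set 1 (0.0549 to 0.106) and under scaling by totals (0.0585). The numbers of histone and ribosomal protein genes called ranged from 6 to 16 and from 6 to 14 when single libraries were left out. Under scaling by totals, 9 histone and 9 ribosomal protein genes passed higher, with medians of 0.84 and 0.26. Histone and ribosomal protein genes have near-identical copies, so counts of single members are uncertain.

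Among genes of cell division, passing genes split. Of 46 genes of the centromere, kinetochore and spindle, 2 passed higher, ANLN and CENPI (1.39), and 3 lower, PLK1, TPX2 (-1.28) and CDC20 (-1.14). CENPI and CDC20 were each lost in 5 and TPX2 in 1 of the 6 fits without a single library. ANLN, anillin, which scaffolds the cleavage furrow, stood at 1754, 1215 and 881 CPM in EV 2.8K and 4420, 2059 and 2203 CPM in EV 10K (1.17, SE 0.30, adjusted p = 0.0388), and EV 100K had a mean of 243 CPM and the cell library 202 CPM. The call of ANLN was lost without EV 2.8K set 2 or 3 or EV 10K set 1 (0.124 to 0.257) and by DESeq2 (0.154) or voom with library weights (0.192). The mitotic kinase PLK1 had 446, 310 and 192 CPM against 145, 136 and 88.3 CPM (-1.36, SE 0.30, adjusted p = 0.0148, but 0.0837 without EV 10K set 3).

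The genes that passed differed in transcript features that the comparison did not use. For protein-coding genes, the median GC share of the annotated transcript was 47.5% among those higher in EV 10K and 54.1% among those lower, against 49.0% of all tested. The median length of the 3′ untranslated region was 1545 and 857.5 nucleotides, against 1017, and that of the coding sequence 1320 and 2025, against 1446. Genes lower in EV 10K also had more exons (median 13, against 8 for those higher and 9 for all). Genes were also ordered by each feature and cut into 5 equal groups. In the group with the longest 3′ untranslated regions 4.25% passed higher and 0.781% lower, and in the group with the highest GC share 1.52% and 2.3%.

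**Figure D5:**
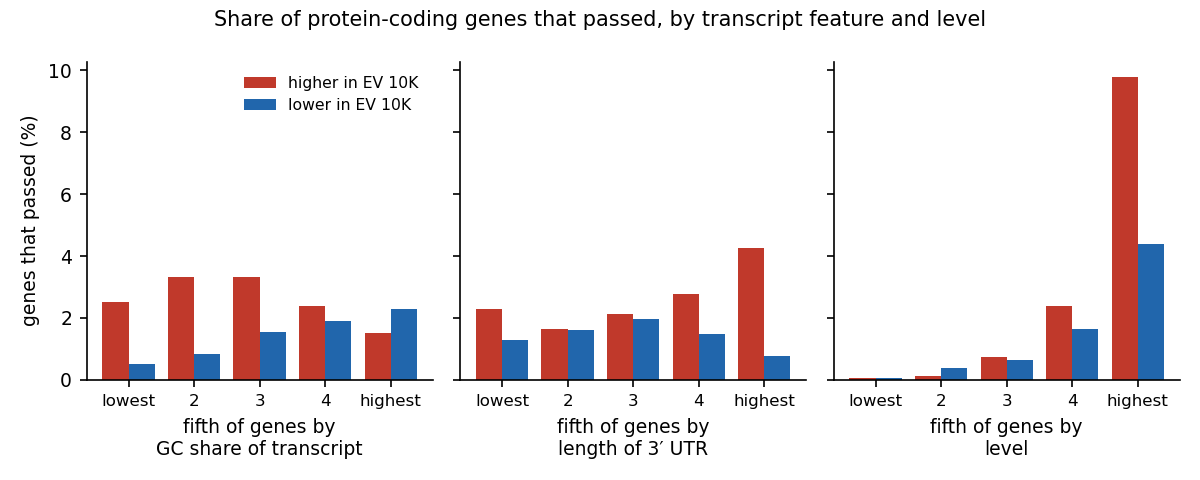
Share of protein-coding genes (%) that passed higher (red) or lower (blue) in EV 10K, in 5 equal groups of genes ordered by GC share of the transcript, length of the 3′ untranslated region and level. Lower calls become more frequent with GC share, from 0.52% to 2.3%, and higher calls are most frequent, at 4.25%, in the group with the longest 3′ regions, while the level panel shows 9.8% and 4.38% in the highest group.

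Calls were rarer among genes of low level: in the lowest of the 5 groups by level 0.0434% passed in each direction. The median level of passing genes was 170 CPM for those higher and 102 CPM for those lower, against 28.1 CPM of all protein-coding genes tested, whereas the 5 groups by GC share had median levels of 24.5 to 33.4 CPM. Across the groups by exon number the median level rose from 19.7 to 44.9 CPM. In the group with the longest coding sequences it was 41.4 CPM, against 22 to 30.1 CPM in the others. The part of level in the differences in exon number and coding length was not tested. These are descriptions without a test, since genes are not independent replicates. The mean GC share of the counted transcripts, weighted by counts, was 51.9%, 50.8% and 50.6% in EV 2.8K and 50.3%, 50.2% and 50.3% in EV 10K, so that set 1 of EV 2.8K was highest. Whether GC content of a library moved the calls was not tested.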

How the data were processed

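Total RNA libraries of EV pellets and cells were made with a SMARTer stranded low-input kit after Trizol extraction, per the labels' protocols. The values are whole-number read counts per gene, deposited by the authors and not normalized. The submitters' processing notes name GRCh38, featureCounts 1.6.3 and STAR 2.6.1d, besides cutadapt 2.7 and bcl2fastq 2.19.1.403. Annotation, strand setting and handling of shared reads were not given in the sources used here. Counts of overlapping, antisense and near-identical genes are therefore uncertain. Of 94946 entries, 45574 matched GENCODE 29 identifiers and 49372 were names of a long noncoding RNA catalogue.

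The 6 EV 10K and EV 2.8K libraries were fitted with edgeR 4.0.16 (R 4.3.3): filterByExpr with a minimum count of 10, TMM scaling, robust quasi-likelihood F-test, Benjamini-Hochberg adjustment over 14043 genes, threshold 0.05, 4 residual degrees of freedom. Only these 6 entered, since EV 100K varied less (biological coefficient of variation 0.248, against 0.631 for EV 10K and 0.817 for EV 2.8K). Levels are CPM with TMM factors, and errors are SD over 3 libraries or the SE of the fit. No 2 libraries agreed within sampling noise. In simulated counts for this comparison (13063 genes), the fit found 47 of 100 genes with a 4-fold change and 10 of 100 with a 2-fold one, and it called 4 genes that had none.

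The members and the 57 gene lists were chosen with earlier results of these data known. The text gives part of the genes chosen by rule, which were the 12 highest and 12 lowest passing genes with a mean of at least 10 CPM and no overlap between groups (clone, catalogue and pseudogene names left out), up to 3 passing members per list with the smallest p, and a fixed set; others are named after their values were seen, including every passing member of short counts. Lists are described by counts and medians, with no set test. Alternatives were other libraries in the fit, DESeq2 1.42.0, limma 3.58.1 (voom with quality weights), other scaling and filters, entries left out, the set number as a block and each library left out. Shares of counts were compared by exact permutation (scipy 1.17.1). A hydrophobicity feature of the encoded proteins was planned and not run, because protein sequences were not used here. A few items that were measured are left out of the text.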

Additional observations from a re-analysis of the deposited data

How the results depend on the processing

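The number of genes called, 561 on the 6 libraries, was 990 (645 higher and 345 lower in EV 10K) when all 9 EV libraries shared 1 estimate of spread, 1407 (876 and 531) with all 10, and 905 (526 and 379) by DESeq2; the cause was not tested. Voom with quality weights called 301 lower and the fit without a filter on low counts 324, against 199. With single libraries left out, the calls ranged from 239 to 674, those higher from 171 to 476 and those lower from 68 to 208, and fewer libraries entered each of these fits. With the set number as a replicate block 727 genes passed (454 higher, 273 lower). Deviations of same-numbered libraries correlated by 0.0486, 0.0242 and 0.0288, too weakly to pair them, although each library correlated best with its own number, and paired sets could not give an exact p below 0.25. Of 146 named genes that passed, 68 did so without every single library. GAPDH turned to -0.0234 and TSG101 to -0.0436 under scaling by totals, and TSG101 ranged from -0.41 to 0.76 with single libraries left out. The share of nuclear protein-coding counts, 2.28 percentage points higher in EV 10K, differed by -3.81 without mitochondrial genes and by 6.32 without catalogue entries. The difference in median transcript length between lower and higher genes was 82 nucleotides for protein-coding genes and 315.5 for genes called by DESeq2. The other alternatives for these results stayed within 1.5 times the count or within the spread between libraries. Calls were rarer at low levels; the part of depth in this was not tested.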
